A study of Mus musculus with 10 samples.

Results

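The replication-dependent histone genes were taken as all genes of the count tables whose symbol, on the GRCm38 annotation, began with Hist1h, Hist2h, Hist3h or Hist4h, leaving out the symbol with the pseudogene suffix ps. This gave 66 genes of the 43629 gene identifiers listed, namely 6 H1, 20 H2A, 15 H2B, 12 H3 and 13 H4 genes. No expression value entered the choice. By position, 54 genes lay in the Hist1 cluster on chromosome 13, 9 in the Hist2 cluster on chromosome 3, 2 in the Hist3 cluster on chromosome 11 and 1, Hist4h4, on chromosome 6. Although named without the suffix, 2 of the 66, Hist1h2aj and Hist1h2al, are annotated as pseudogenes, and 3 further annotated symbols of the same families (Hist1h2bh, Hist1h2bm and Hist2h2bb) were not analysed here.

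The samples were dorsal telencephalon, the forebrain region that gives rise to the cerebral cortex, taken from C57BL/6 mouse embryos at E14.5. The study compared 5 control samples with 5 samples in which Dot1l, the gene of the methyltransferase that modifies lysine 79 of histone H3, was deleted. Controls carried no Cre and had a floxed copy of Dot1l beside a normal copy (Dot1l-cKO f/+), whereas Dot1l-cKO samples carried Cre and had both copies floxed (Dot1l-cKO f/f). Cre was present in every mutant sample and in no control, so loss of Dot1l and the presence of Cre cannot be told apart here. Replicate numbers 1 to 5 occur in both groups, and same-numbered samples deviated together from their group means, so fits with and without the number as a block are both given. In these bulk samples, fewer cells of a type and less RNA per cell cannot be told apart.

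Core histones H2A, H2B, H3 and H4 form the protein spool of the nucleosome, and linker histone H1 binds the DNA between nucleosomes. A dividing cell must double its histones while it copies its DNA, and most of this supply comes from clustered, intron-less genes that are transcribed in S phase. Their messages are the known exception among animal mRNAs in that they end in a conserved stem-loop instead of a poly(A) tail. The stem-loop binding protein, encoded by Slbp, holds this structure through 3' end processing, translation and decay. Variant histones such as H2A.Z and H3.3 are encoded by other genes, outside the clusters, with introns and polyadenylated messages. The libraries were made from total RNA after depletion of ribosomal RNA, without selection for poly(A), so messages without a tail could be counted.

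The 3' stem-loop is the feature that defines this class of message, and it is shown here in each form found among the 66 genes. A 6-base stem beginning with GG, a 4-base loop beginning with TT and the exact complement of the stem were found in an annotated transcript of 42 of the 66 genes, against 88 of 21837 other genes with a protein-coding transcript (0.403%). Genes without a match include many that are annotated as a coding sequence only, such as Hist1h2bn, Hist1h2ak and Hist1h4k, so no match says only that the letters are not in the annotated transcript. Each sequence below is read 5' to 3' from the GENCODE M21 transcript, with the stem-loop in capitals and 5 bases on either side.
Hist1h2bg: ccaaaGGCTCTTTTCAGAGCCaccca
Hist1h4d: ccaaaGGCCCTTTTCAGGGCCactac
Hist1h2bk: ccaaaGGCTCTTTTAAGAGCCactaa
Hist2h4: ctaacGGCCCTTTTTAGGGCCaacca
Hist1h4j: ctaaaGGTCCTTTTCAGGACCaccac
Hist2h2ac: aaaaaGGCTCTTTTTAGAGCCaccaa
The first form occurred in 24 genes, among them Hist1h2bg, Hist1h1e, Hist1h1c, Hist1h1d and Hist1h2be. The form of Hist1h4d occurred in 7 genes, all of the H4 class, and that of Hist1h2bk in 6 genes. Those of Hist2h4 and Hist1h4j occurred in 2 H4 genes each and that of Hist2h2ac in 1. In 17 genes the annotated transcript ran more than 200 bases beyond the stem-loop, so reads from transcripts that end at the stem-loop and from longer ones were counted together for them.

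Promoter windows of 300 bases, from 250 before to 50 after the RefSeq start on GRCm38.p6, were found for 59 of the 66 genes. They were searched on both strands for TATAAA (the TATA box), CCAAT (the CCAAT box), TTTGCAT (the core of the octamer element known from H2B promoters) and AAACACA (an element known from H1 promoters). CCAAT was present in 50 of the 59 windows (84.7%) against 37.3% of the 32791 other promoter windows in the table, and by class in every H1, H2A, H2B and H3 window but in 3 of 12 H4 windows. TATAAA was present in 35 (59.3%) against 13.5% of other windows. TTTGCAT was found in 7 of 18 H2A and 4 of 13 H2B windows against 4.6% of other windows, and AAACACA in 5 of 6 H1 windows against 7.17%. These are matches of letters and not tested binding sites. Some H2A and H2B genes start close together on opposite strands, so their windows overlap and the same match can count for both. This holds for TTTGCAT in Hist1h2ba, Hist1h2bg and Hist1h2bk, whose matches recur in Hist1h2aa, Hist1h2ae and Hist1h2ah. Hist1h2be is listed with 2 starts, and the window of the start not used holds TTTGCAT. The windows of Hist1h2bg, the histone gene that decreased in the fit without the block, of Hist1h1b, the H1 gene that decreased with it, and of Hist1h4d, the H4 gene with the most counts, are given below with the matches in capitals.
Hist1h2bg (chr13:23571150-23571449, plus strand): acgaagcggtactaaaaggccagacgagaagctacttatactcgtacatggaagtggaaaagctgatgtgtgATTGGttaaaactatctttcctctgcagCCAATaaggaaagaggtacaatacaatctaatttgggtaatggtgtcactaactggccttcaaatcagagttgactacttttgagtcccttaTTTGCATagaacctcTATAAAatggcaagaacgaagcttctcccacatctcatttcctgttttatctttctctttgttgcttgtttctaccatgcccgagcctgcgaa
Hist1h1b (chr13:21780576-21780875, minus strand): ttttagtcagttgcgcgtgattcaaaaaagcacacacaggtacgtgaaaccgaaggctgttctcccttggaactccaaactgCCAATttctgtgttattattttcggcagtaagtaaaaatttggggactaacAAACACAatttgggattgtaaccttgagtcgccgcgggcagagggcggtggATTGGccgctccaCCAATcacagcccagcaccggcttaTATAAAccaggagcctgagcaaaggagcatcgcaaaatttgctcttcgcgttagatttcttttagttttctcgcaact
Hist1h4d (chr13:23581318-23581617, plus strand): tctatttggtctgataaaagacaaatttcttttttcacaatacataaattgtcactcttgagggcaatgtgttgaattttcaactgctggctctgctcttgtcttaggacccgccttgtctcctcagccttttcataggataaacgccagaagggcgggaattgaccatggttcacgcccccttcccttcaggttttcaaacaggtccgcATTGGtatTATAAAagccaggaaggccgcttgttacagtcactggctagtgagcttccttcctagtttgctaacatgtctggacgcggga

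The total count per sample was 54202349 to 66556034, and the 66 genes held 0.940 to 1.33% of it in controls and 0.847 to 1.27% in Dot1l-cKO. The number at the start of the normalised-count column headers, whose meaning the files do not state, was 57 for replicates 2 and 3 of both groups and differed from 57 for replicates 1, 4 and 5. The 4 libraries with 57 had 0.0471 to 0.492% of their counts in mitochondrial ribosomal RNA and the other 6 had 5.79 to 10.9%, so values are also given within each of these sets. Dot1l itself, counted over all its exons, stood at 31.4, 41.5, 36.6, 40.6 and 36.3 CPM, the count of a gene scaled to its library's TMM-adjusted size, in control replicates 1 to 5 and at 42.3, 20.1, 39.6, 43.4 and 51.7 CPM in Dot1l-cKO, a log2 fold change of 0.081 (SE 0.20) with an edgeR adjusted p of 0.864. Of the mutants, replicate 2 lay below every control and 3 lay above them all. A count over the whole gene includes exons outside the floxed segment, whose position the sources used here do not give, so it does not check the deletion. Across all 17039 genes tested, 966 increased and 246 decreased upon Dot1l-cKO at an adjusted p below 0.05 by edgeR's quasi-likelihood test, and 1109 increased and 495 decreased with the replicate number as a block.

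Of the 66 histone genes, 62 passed the filter on low counts. In the fit without the block, 1 of them decreased, Hist1h2bg, and none increased, which is read against 1.44% of all genes tested that decreased and 5.67% that increased (7.11% in either direction). With a sample left out, the number called was 6 without control replicate 5, 5 without Dot1l-cKO replicate 2, 1 without Dot1l-cKO replicate 1 and 0 without any other sample. The whole table moved as well in these fits, with 126 to 343 genes decreased, the most without control replicate 5. At an unadjusted p below 0.05, 13 were lower and 0 higher in Dot1l-cKO, against 1243 lower and 2265 higher of all 17039 genes tested. With the replicate number as a block, 16 decreased and none increased, a share of 25.8% against 2.91% of all genes that decreased, 6.51% that increased and 9.41% in either direction. DESeq2, an alternative run on the same counts without the block, called 8 as decreased and none as increased, against 3.43 and 6.98% of all genes (10.4% together). These 16 comprised 7 H2B genes (Hist1h2bb, Hist1h2be, Hist1h2bg, Hist1h2bj, Hist1h2bk, Hist1h2bn and Hist1h2bp), 6 H2A genes (Hist1h2ac, Hist1h2ae, Hist1h2af, Hist1h2ai, Hist1h2ak and Hist1h2an), the H3 genes Hist1h3h and Hist1h3i, and the H1 gene Hist1h1b. No H4 gene was among them. All 16 lay in the Hist1 cluster. All were lower in Dot1l-cKO in each of the 5 same-numbered pairs. The blocked fit that chose them favours such genes, so this is no separate support. Of the 16, 9 were also called when the header number was the block, a fit in which 3.5% of all genes decreased, 7.17% increased and 10.7% did either. Their log2 fold changes in the blocked fit ran from -0.84 to -0.22, with adjusted p from 0.014 to 0.046.

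The direction was shared more widely than the calls. The fitted log2 fold change was below 0 for 58 of the 62 genes tested, against 51.2% of all genes, with a median of -0.22 against -0.0056 for all genes. The exceptions were Hist1h1t at 0.60, Hist4h4 at 0.062, Hist3h2a at 0.022 and Hist1h2ao at 0.016, and none of these passed the test. CPM was lower in all 5 same-numbered pairs for 28 of the 62, against 11.6% of all genes. It was higher in all 5 pairs for 0, against 2252 of all 17039 genes tested. The groups of 5 did not overlap for 1 gene, Hist2h3c2, against 2.17% of all genes that were lower without overlap, and the groups overlapped for the other 61 genes tested. Within the 4 libraries with header number 57 the median was -0.18, with 53 of 62 genes below 0. No histone gene was called there, but neither was any gene of the whole table called as decreased in this fit of 2 against 2 samples (0% decreased, 0.00581% increased). Within the other 6 libraries it was -0.23, with 57 of 61 below 0 and 2 called as decreased, Hist1h2bk and Hist1h2bn, against 0.896% of all genes that decreased, 3.41% that increased and 4.31% in either direction.

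**Figure D1:**
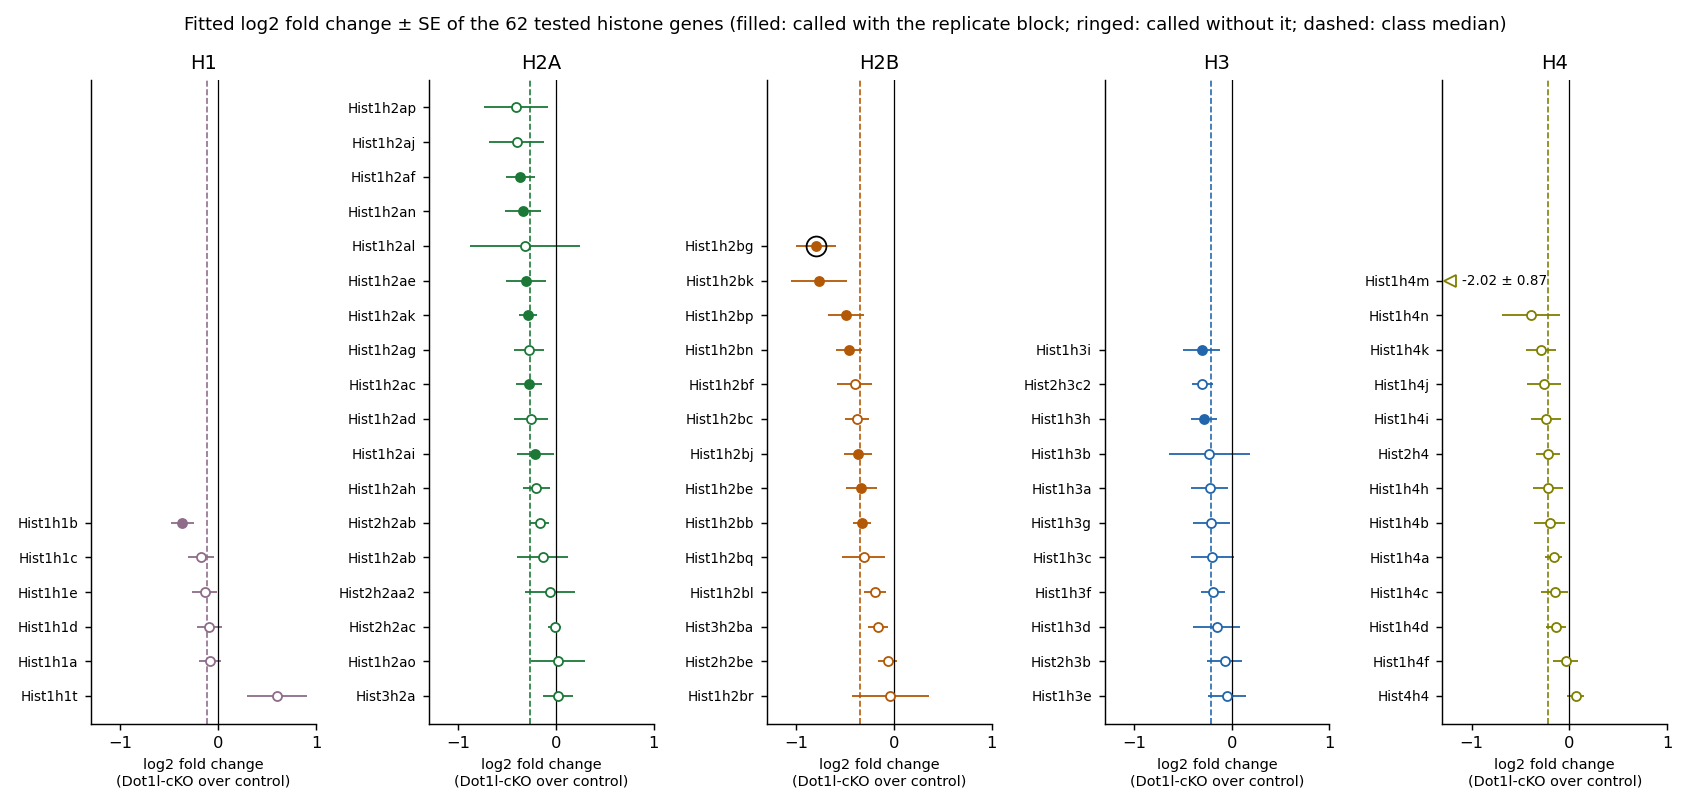
Fitted log2 fold change (x axis, Dot1l-cKO over control, with its SE) of each of the 62 tested histone genes, by class. Filled points are the 16 genes called with the replicate block, the ringed point is Hist1h2bg, the gene called without it, dashed lines mark class medians, and Hist1h4m at -2.02 is drawn as an arrowhead. In the H2B panel, 14 of 14 points lie below 0.

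The 4 genes that did not pass the filter were at or near 0 in every sample. They were Hist1h2aa and Hist1h2ba, the testis histones TH2A and TH2B, with Hist2h2aa1 and Hist2h3c1. Hist2h2aa1 and Hist2h3c1 share every 50-base window of their transcripts with another annotated gene, including Gm20634, which overlaps both on the same strand. Reads that align to several places or overlap 2 genes are left out by htseq-count at its defaults, so their values near 0 do not show that the genes are silent. This limit touches the family as a whole, including rankings of its genes by level, which are by the reads that were counted. The median share of 50-base windows found in the transcripts of another gene, whether a copy elsewhere or an annotation overlapping the same locus, was 56.0%, by class 1.13% for H1, 39.5% for H4, 49.7% for H2B, 62% for H3 and 73.2% for H2A. Among the 31 genes with at most 50% of their 50-base windows shared, 29 were tested, the median log2 fold change was -0.19 and 7 of the 16 blocked calls were found, whereas the 33 tested genes above that share had a median of -0.28.

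The 5 classes were then compared by the sum of their counts, which is weighted towards the abundant genes and is given with no test. The H2B genes together stood at 2555, 2924, 2404, 2505 and 2133 CPM in control replicates 1 to 5 and 1824, 2331, 1797, 1820.3 and 1677 CPM in Dot1l-cKO. The means were 2504 ± 286 and 1889.8 ± 254 CPM (SD, n = 5), 24.5% lower in the mutants, and each same-numbered pair was lower, by 20.3 to 28.6%. Of the 5 mutant sums, 4 lay below every control, and Dot1l-cKO replicate 2 lay within the control range. The H2A sum was 1359.9 ± 216 CPM in controls and 1165 ± 176 CPM in mutants, 14.4% lower and lower in 5 of 5 pairs. For H3 the values were 1673 ± 292 and 1478 ± 288 CPM, 11.6% lower and lower in 5 of 5 pairs. The linker histone sum was 3038 ± 369 and 2703 ± 402 CPM, 11% lower in 5 of 5 pairs, and the H4 sum was 3094 ± 274 and 2741 ± 403 CPM, 11.4% lower and lower in 4 of 5 pairs. For these 4 classes the difference of the means was smaller than the SD of at least 1 group, and the groups overlapped.

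**Figure D2:**
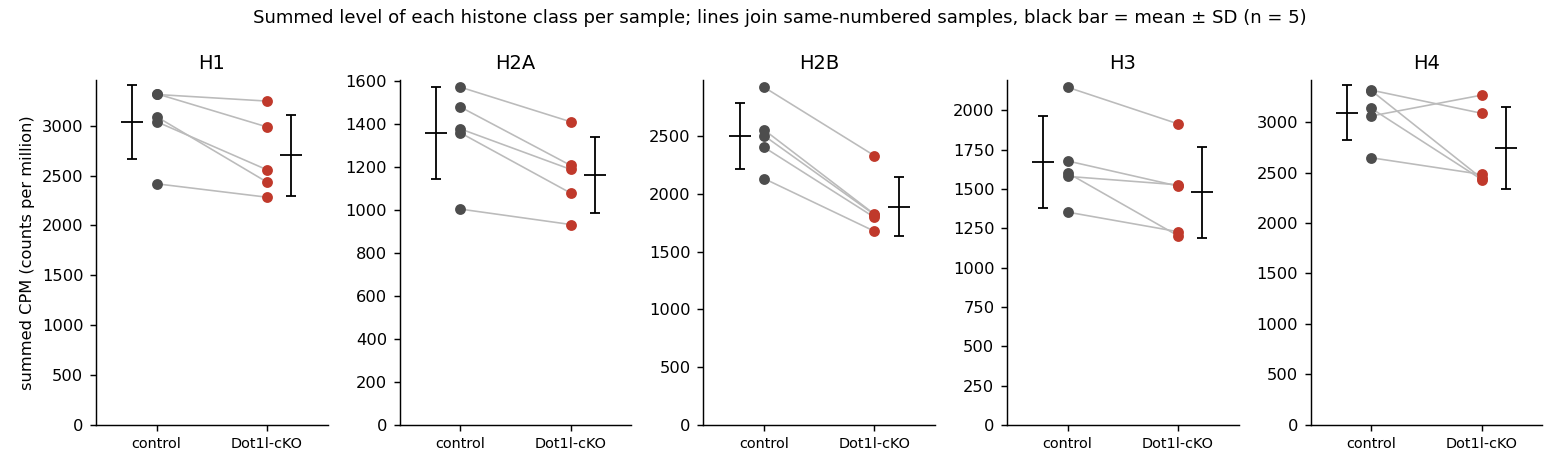
Summed CPM (y axis, from 0) of each histone class in the 5 control and 5 Dot1l-cKO samples. Grey lines join same-numbered samples and black bars give the mean ± SD. Every line slopes down for H1, H2A, H2B and H3, and 4 of 5 do for H4.

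As a share of all histone counts, H2B made up 21.8, 22.4, 20.2, 20.7 and 22.3% in control replicates 1 to 5 and 20.3, 19.6, 18.9, 16.7 and 19.5% in Dot1l-cKO. The means were 21.5 ± 1.00 and 19.0 ± 1.36% (SD, n = 5), and the share was lower in 5 of 5 pairs. The shares of H1 (26.0 and 27.1%), H2A (11.6 and 11.7%), H3 (14.3 and 14.8%) and H4 (26.6 and 27.5%) were each higher in the mutants on average. Without Hist1h2bg, the H2B sum was 22.8% lower, and without both Hist1h2bg and Hist1h2bk it was 20.6% lower, in each case in 5 of 5 pairs. All histone genes other than H2B were 11.7% lower together. By the median of the fitted log2 fold changes the order was the same at its ends, with H2B at -0.35 (14 genes), H2A at -0.26 (18), H4 at -0.22 (13), H3 at -0.21 (11) and H1 at -0.11 (6). Within the libraries with header number 57 the class medians were -0.28 for H2B, -0.17 for H2A, -0.17 for H3, -0.17 for H4 and -0.12 for H1. Within the other 6 they were -0.37, -0.27, -0.22, -0.20 and -0.12. Differences between classes were not tested.

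Among the H2B genes, which encode the partner of H2A in the nucleosome, Hist1h2bg (chr13:23571396-23572013, plus strand, GRCm38) decreased in both fits. Its level was 214, 266, 226, 211 and 177 CPM in control replicates 1 to 5 and 179.6, 91.0, 139, 79.9 and 142 CPM in Dot1l-cKO. Of the mutant samples, 4 lay below every control and replicate 1 lay just above the lowest control. The log2 fold change was -0.79 (SE 0.20), with an edgeR adjusted p of 0.039, and -0.84 with the block, with an adjusted p of 0.044. The call was lost in 8 of the 10 fits that left out a sample, all but those without control replicate 5 or Dot1l-cKO replicate 1, with edgeR adjusted p between 0.058 and 0.092 in those 8. The log2 fold change was -1.08 within the libraries with header number 57, where no gene of the whole table decreased, and -0.59 within the other 6 (edgeR adjusted p 0.251). The log2 fold change with a sample left out stayed between -0.95 and -0.67. About 49.7% of its 50-base windows are found in other genes, most often in Hist1h2bc (45.0%), which stood at 223 ± 34.3 CPM in controls and 172 ± 24.3 CPM in mutants (SD, n = 5; edgeR adjusted p 0.098, and 0.058 with the block, DESeq2 adjusted p 0.027).

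Hist1h2bb was the H2B gene with the highest mean CPM and also, per length, the highest in controls (904 CPM per kb of exon). It stood at 475, 486, 444, 502 and 389 CPM in control replicates 1 to 5 and 375, 413, 335, 390.1 and 325 CPM in Dot1l-cKO, and 3 mutant samples lay below every control. The log2 fold change was -0.32 (SE 0.092), with an edgeR adjusted p of 0.061, and 0.015 with the block. Hist1h2be was measured at 338, 390.4, 323, 239.7 and 291 CPM in controls and 246, 336, 262, 206 and 207 CPM in mutants. Its groups overlapped, although each pair was lower (log2 fold change -0.33, SE 0.16, edgeR adjusted p 0.260, and 0.022 with the block). Its annotation overlaps Hist1h1e on the same strand over 496 bases, and reads there cannot be assigned to either gene. Hist1h2bn, whose coding sequence shares 67.5% of its windows with Hist1h2bk, stood at 259, 302, 255, 281 and 213 CPM in controls and 166, 241, 212, 175 and 159 CPM in mutants. Here 4 mutants lay below every control, and the log2 fold change was -0.46 (SE 0.13, edgeR adjusted p 0.059, and 0.014 with the block).

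The remaining genes called with the block fall outside the rule for named genes and were singled out after their values were seen. Hist1h2bk stood at 291, 319, 152, 266 and 195 CPM in control replicates 1 to 5 and 128, 257, 104, 92.9 and 137 CPM in Dot1l-cKO. Dot1l-cKO replicate 2 lay inside the control range, while the other 4 mutants lay below every control, and the log2 fold change was -0.77 (SE 0.28, edgeR adjusted p 0.146, and 0.031 with the block). It was -0.36 within the libraries with header number 57 and -1.08 within the other 6. Hist1h2bj stood at 188 ± 26.3 CPM in controls and 145 ± 30.4 CPM in mutants, and Hist1h2bp at 70.9 ± 13.1 and 50.4 ± 13.6 CPM (SD, n = 5). Of the H2B genes not called by edgeR in either fit, Hist1h2bc, Hist1h2bf and Hist1h2bl were lower in 5 of 5 pairs, at log2 fold changes of -0.38, -0.40 and -0.20. Hist2h2be, which shares no 50-base window with any other annotated gene, stood at 26.7 ± 1.87 and 25.5 ± 3.52 CPM, with a log2 fold change of -0.063 (SE 0.10). Hist1h2bq and Hist1h2br, with 97.3 and 88.7% of their windows shared, were at or below 16.1 CPM in every sample.

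**Figure D3:**
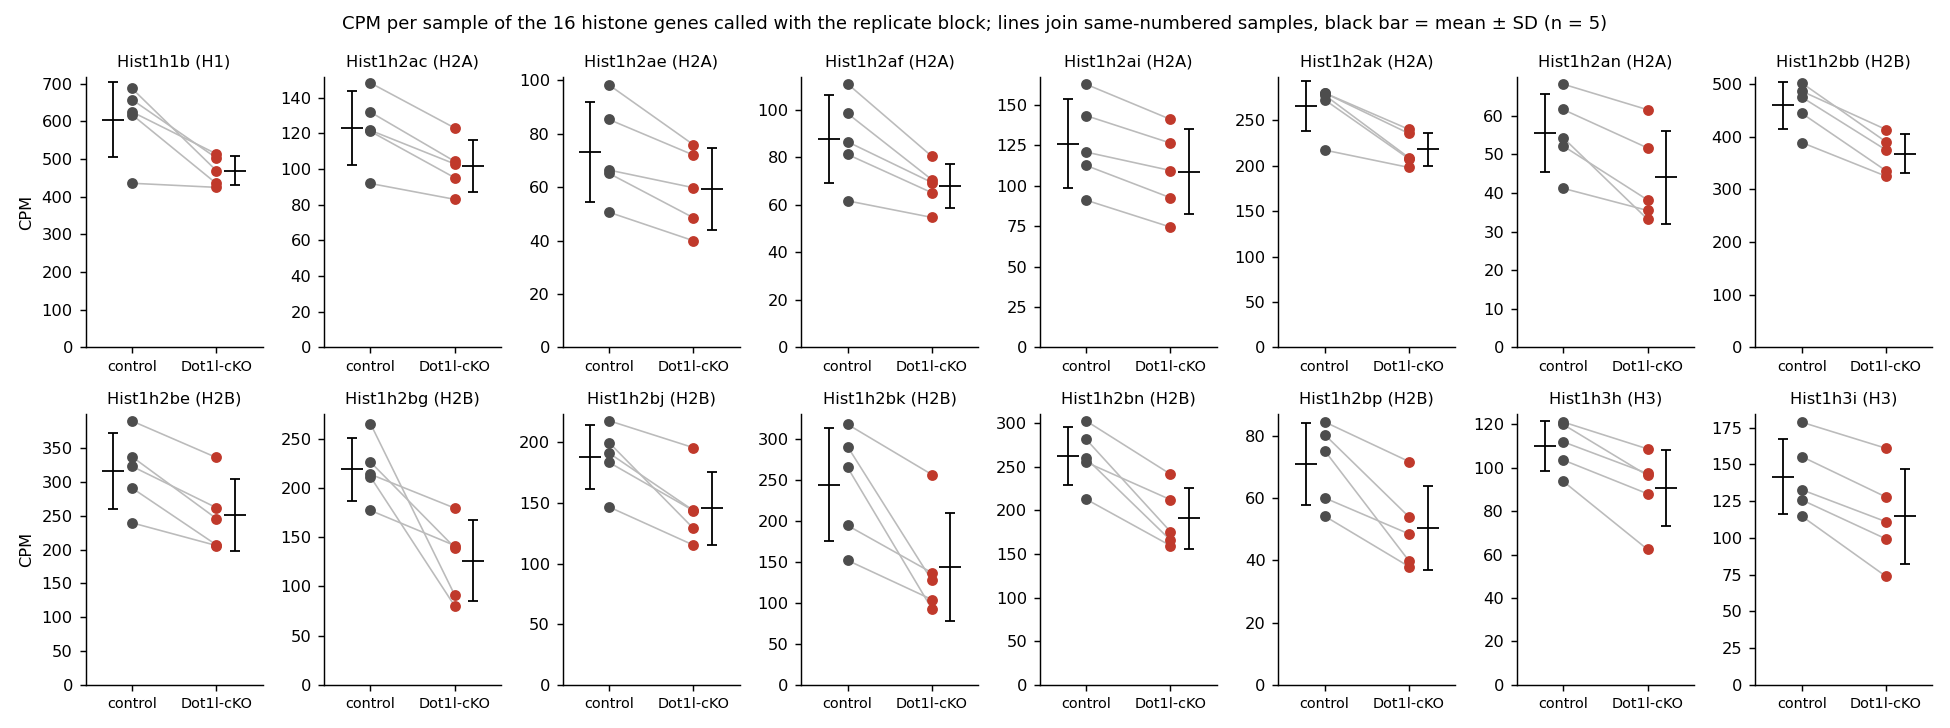
CPM (y axis, from 0) in each sample of the 16 histone genes called as decreased with the replicate number as a block. Grey lines join same-numbered samples and black bars give the mean ± SD of 5 samples. Every line slopes down, which the choice of genes by the blocked fit favours, while control and Dot1l-cKO points overlap in all 16 panels.

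The H2A genes encode the histone that pairs with H2B, and 12 of the 20 stand head to head with an H2B gene. Hist1h2ak had the highest level of the class both in CPM and per length (675 CPM per kb in controls). It was measured at 278, 279.8, 272, 279.8 and 217 CPM in control replicates 1 to 5 and 209, 235, 207, 239.8 and 198 CPM in Dot1l-cKO, with control replicate 5 among the mutants and the other 4 controls above them all. The log2 fold change was -0.28 (SE 0.089, edgeR adjusted p 0.084, and 0.033 with the block). Hist1h2ab stood at 215, 248, 239, 215 and 79.8 CPM in controls and 167, 236, 193, 174 and 137 CPM in mutants. Its lowest value of all was control replicate 5, and the log2 fold change of -0.14 (SE 0.26) did not pass either fit (edgeR adjusted p 0.818, and 0.845 with the block). Without control replicate 5 it was -0.34 (edgeR adjusted p 0.174). Hist2h2ac, the third by mean CPM and a gene of the chromosome 3 cluster, stood at 140.4, 141, 136, 146 and 126 CPM in controls and 132, 150.1, 132, 142 and 126 CPM in mutants. Its log2 fold change was -0.016 (SE 0.068, edgeR adjusted p 0.927, and 0.867 with the block).

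The other H2A genes called with the block were less abundant. Hist1h2ac stood at 123 ± 20.5 CPM in controls and 102 ± 14.6 CPM in mutants, Hist1h2ae at 73.2 ± 18.7 and 59.3 ± 15.2 CPM, and Hist1h2af at 87.8 ± 18.5 and 68.0 ± 9.31 CPM (SD, n = 5). For Hist1h2ai the means were 126 ± 27.7 and 109 ± 26.4 CPM, and for Hist1h2an 55.5 ± 10.2 and 44.0 ± 12.1 CPM. Their fitted log2 fold changes without the block lay between -0.37 and -0.21. The groups overlapped in each, and low controls had low mutants of the same number. Hist1h2ac, which has an annotated transcript reaching 2010 bases beyond its stem-loop, shares 14.1% of its windows with other genes, whereas Hist1h2af and Hist1h2ai share 94.0 and 90.1%.

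Histone genes of these 2 classes formed 12 head-to-head pairs, with 176 to 306 bases between the annotated starts, and 11 pairs had both genes tested. Both genes had a negative log2 fold change in 10 of the 11, and the H2B gene had the lower value in 9. In the closest pair, 176 bases apart, Hist1h2ae was at -0.30 and Hist1h2bg at -0.79. The pair of Hist1h2ak and Hist1h2bn, 296 bases apart, was at -0.28 and -0.46. Hist2h2ac and Hist2h2be, the tested pair outside chromosome 13, were at -0.016 and -0.063. No test was made of the difference within pairs.

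**Figure D4:**
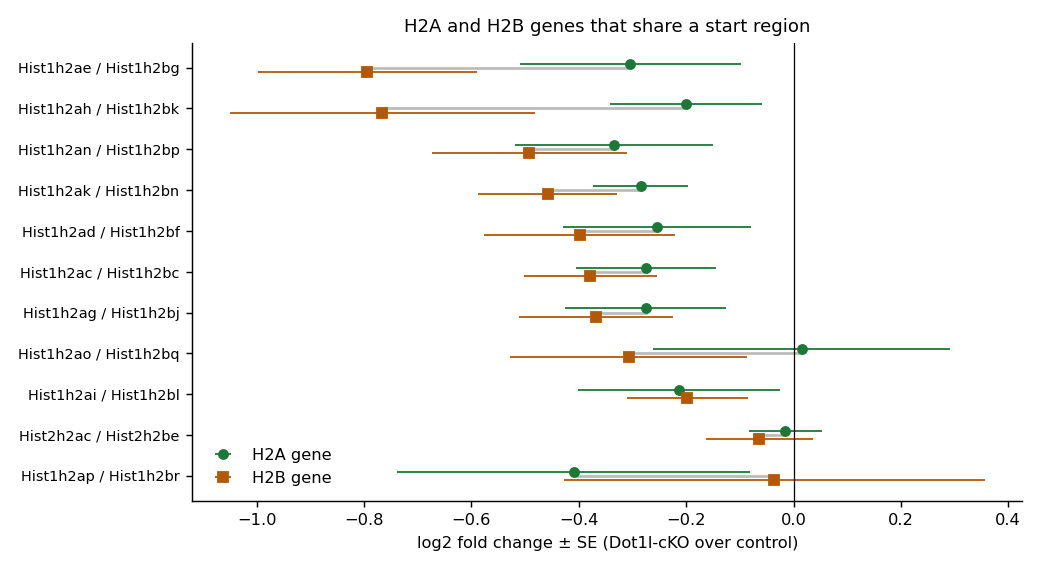
Fitted log2 fold change ± SE (x axis, Dot1l-cKO over control) of the H2A gene (circle) and the H2B gene (square) of each of the 11 head-to-head pairs with both genes tested. The square lies to the left of the circle in 9 of the 11 pairs.

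The H3 genes encode the histone that carries lysine 79, the residue methylated by DOT1L. None passed edgeR's test without the block, 2 passed it with the block, and DESeq2 called 1, Hist2h3c2. At an unadjusted p below 0.05 without the block, 1 was lower, against 1243 lower and 2265 higher of all 17039 genes tested. Hist1h3f stood at 333, 396, 346, 299 and 309 CPM in control replicates 1 to 5 and 271, 351, 237, 349 and 266 CPM in Dot1l-cKO, with 3 mutants below every control and 2 within the control range (log2 fold change -0.19, SE 0.12, edgeR adjusted p 0.434, and 0.251 with the block). Hist1h3e was measured at 234, 422, 331, 259 and 213 CPM in controls and 194, 329, 334, 266 and 289 CPM in mutants. Its groups overlapped widely, with a log2 fold change of -0.048 (SE 0.20, edgeR adjusted p 0.923, and 0.895 with the block). For Hist1h3a the values were 176, 242, 177, 192 and 141 CPM in controls and 125, 233, 149, 167 and 119 CPM in mutants, lower in 5 of 5 pairs but overlapping (log2 fold change -0.22, SE 0.19, edgeR adjusted p 0.563, and 0.071 with the block). Hist1h3h and Hist1h3i, called with the block, stood at 110.1 ± 11.5 against 90.6 ± 17.4 CPM and 141 ± 25.5 against 115 ± 32.5 CPM (SD, n = 5), and share 93.9 and 87.6% of their windows. Hist2h3c2, the gene whose groups did not overlap, was low, at 4.99, 5.10, 4.51, 3.96 and 4.29 CPM in controls and 3.94, 3.83, 3.45, 3.54 and 3.80 CPM in mutants (log2 fold change -0.30, SE 0.11, edgeR adjusted p 0.151, and 0.128 with the block, DESeq2 adjusted p 0.026). Hist1h3b ranged widely, from 35.2 to 209 CPM within the mutants alone.

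The H4 genes, which encode the partner of H3, were the class with the most counts. None was called by edgeR in either fit or by DESeq2. At an unadjusted p below 0.05 by edgeR without the block, 1 was lower, against 1243 lower and 2265 higher of all 17039 genes. Hist1h4d stood at 747, 673, 739, 759 and 628 CPM in control replicates 1 to 5 and 589, 719, 637, 756 and 519.6 CPM in Dot1l-cKO. The groups overlapped, and the log2 fold change was -0.14 (SE 0.11, edgeR adjusted p 0.511, and 0.266 with the block). Hist1h4h was measured at 505, 423, 585, 481 and 383 CPM in controls and 305, 532, 354, 437 and 420.0 CPM in mutants, lower in 3 of 5 pairs (log2 fold change -0.22, SE 0.15, edgeR adjusted p 0.483, and 0.417 with the block). Per length it was the highest histone gene of all in controls, at 1012 CPM per kb, against 623 for Hist1h4d, whose annotation runs 770 bases past the stem-loop. Hist1h4c stood at 337, 259, 335, 379 and 335 CPM in controls and 284, 332, 220.1, 369 and 279 CPM in mutants, again overlapping (log2 fold change -0.15, SE 0.14, edgeR adjusted p 0.603, and 0.445 with the block). Hist4h4, the lone histone gene of the rule on chromosome 6, stood at 119 ± 7.17 and 124 ± 13.5 CPM, a log2 fold change of 0.062 (SE 0.083).

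Hist1h4m had the lowest log2 fold change of all 62 genes, -2.02 (SE 0.87), and this rested on a single library. Its values were 2.07, 5.37, 6.2, 45.9 and 1.63 CPM in control replicates 1 to 5 and 1.79, 5.13, 5.02, 1.64 and 1.56 CPM in Dot1l-cKO, so that control replicate 4 was far above the other 9 samples. Without control replicate 4 the log2 fold change was -0.34 (edgeR adjusted p 0.781). Of the 50-base windows of Hist1h4m, 89.8% are also found in Hist1h4n, which stood at 102, 141, 70.9, 57.2 and 84.3 CPM in controls and 58.0, 92.9, 37.7, 103 and 55.6 CPM in mutants and was at its lowest control value in the same library. Summed, the 2 genes were at 104, 146, 77.1, 103 and 85.9 CPM in controls and 59.8, 98.1, 42.7, 104 and 57.2 CPM in mutants. In the sum, control replicate 4 lay within the range of the other controls. Both genes were singled out after their values were seen.

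The H1 genes encode the linker histones, and the median H1 gene shares 1.13% of its windows with another gene. The most abundant, Hist1h1e, shares 32.0%, most often with Hist1h2be, whose annotation it overlaps on the same strand over 496 bases. Hist1h1e stood at 769, 768, 732, 839 and 593 CPM in control replicates 1 to 5 and 619.9, 680.4, 609.6, 889.7 and 566 CPM in Dot1l-cKO, and was highest in a mutant sample (log2 fold change -0.14, SE 0.13, edgeR adjusted p 0.609, and 0.235 with the block). Hist1h1d was measured at 598, 671, 537, 638 and 509 CPM in controls and 494, 693, 492, 633 and 459.6 CPM in mutants (log2 fold change -0.091, SE 0.13, edgeR adjusted p 0.745, and 0.345 with the block). Hist1h1c stood at 561, 630.1, 586, 659.9 and 465 CPM in controls and 450.4, 572, 493, 644 and 406 CPM in mutants, lower in 5 of 5 pairs (log2 fold change -0.18, SE 0.13, edgeR adjusted p 0.509, and 0.10 with the block). In all 3 genes the ranges of the groups overlapped. Hist1h1b (chr13:21779883-21780625, minus strand, GRCm38), which shares no window with another gene, was at 618, 688, 658, 626 and 436 CPM in controls and 435, 469.7, 503, 514 and 425 CPM in mutants. Of its controls, 4 lay above every mutant, and control replicate 5 lay among the mutants. Its log2 fold change was -0.37 (SE 0.12, edgeR adjusted p 0.090, and 0.041 with the block). Per length, Hist1h1b and Hist1h1a led the class in controls, at 814 and 703 CPM per kb, but Hist1h1a was at -0.082 (SE 0.11) on the log2 scale and lower in 2 of 5 pairs. Hist1h1t, the testis H1, was at or below 0.980 CPM in every sample.

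By cluster, the 52 tested genes of the Hist1 cluster had a median log2 fold change of -0.26, with 50 below 0. The 10 tested genes of the Hist2, Hist3 and Hist4 clusters had a median of -0.068, with 8 below 0. None of the 10 was called by edgeR in either fit, and DESeq2 called 1, Hist2h3c2. At an unadjusted p below 0.05 without the block, 1 of the 10 was lower, against 1243 lower and 2265 higher of all 17039 genes. This difference between clusters was not tested. The median of the 10 was 0.035 within the libraries with header number 57 and -0.15 within the other 6, so its sign was not the same in both sets. The 16 tested genes annotated more than 200 bases beyond the stem-loop had a median of -0.17, and the other 46 had a median of -0.27.

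Related genes were then examined in 4 lists. Calls in these and in the marker lists are read against the shares of all genes called. Without the block, 1.44% of all genes decreased and 5.67% increased (7.11% together). The shares were 2.91 and 6.51% with the block (9.41% together) and 3.43 and 6.98% with DESeq2 (10.4% together). At an unadjusted p below 0.05 without the block, 1243 of all 17039 genes were lower and 2265 higher. Among 21 genes of DNA replication, the process to which histone synthesis is coupled, the log2 fold change was below 0 for all 21, with a median of -0.24, and 1 decreased without the block and 7 with it. Rrm2, a subunit of the ribonucleotide reductase that makes deoxynucleotides, stood at 183, 218, 196, 184 and 129 CPM in control replicates 1 to 5 and 118, 139, 150.2, 119 and 100.4 CPM in Dot1l-cKO. Of its controls, 4 lay above every mutant (log2 fold change -0.54, SE 0.14, edgeR adjusted p 0.044, and 0.0052 with the block). The other 6 called with the block were Cdc45 (a component of the replicative helicase), Prim1 (primase), Rrm1, Tyms (thymidylate synthase), Cdt1 (origin licensing) and Pola1 (the catalytic subunit of DNA polymerase alpha). Without the block, the call of Rrm2 was lost in 8 of the 10 fits that left out a sample, all but those without control replicate 5 or Dot1l-cKO replicate 3. Its log2 fold change was -0.50 within the libraries with header number 57, where no gene of the whole table decreased, and -0.56 within the other 6 (edgeR adjusted p 0.073). Among 7 markers of dorsal progenitors, 5 had a log2 fold change below 0 and 2 above it (median -0.29, range -0.52 to 0.13). Of these, Pax6 decreased (log2 fold change -0.36, SE 0.087, edgeR adjusted p 0.029), and Sox2 also did with the block. The list's summed CPM ran from 753 to 1153 in controls and from 810.4 to 987 in mutants. Of 6 cortical neuron markers, 5 had a log2 fold change above 0 and 1 below it (median 0.13, range -0.24 to 0.34). None passed edgeR's test without the block (1 at an unadjusted p below 0.05) and 1, Neurod2, increased with it and by DESeq2. The part of progenitor number or of cells in S phase in the histone values was not tested.

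Of 17 genes that make or process histone mRNA, none passed edgeR's test without the block (3 at an unadjusted p below 0.05, all lower) and 3 decreased with it and by DESeq2. These 3 were Npat, the activator of histone gene transcription, Eri1, an exonuclease that trims the stem-loop end, and Cdk2, the kinase that acts on NPAT, at log2 fold changes of -0.23, -0.26 and -0.30. Slbp was at 91.7, 90.3, 89.4, 77.8 and 67.6 CPM in control replicates 1 to 5 and 75.4, 92.6, 82.4, 65.5 and 60.0 CPM in Dot1l-cKO. Its groups overlapped, with a log2 fold change of -0.15 (SE 0.13, edgeR adjusted p 0.567, and 0.149 with the block). Of 14 histone chaperone genes, none passed edgeR's test in either fit or DESeq2's (3 at an unadjusted p below 0.05 by edgeR without the block, all lower), and 13 had a log2 fold change below 0 with a median of -0.15.

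Variant histones, the replication-independent counterparts, had a median log2 fold change of -0.15 over 11 genes, of which 1 decreased in both fits. This was H2afy2, the gene of macroH2A2, at 189, 230.0, 215, 209 and 172 CPM in control replicates 1 to 5 and 136, 163, 183, 153 and 143 CPM in Dot1l-cKO. Of the mutants, 4 lay below every control (log2 fold change -0.38, SE 0.10, edgeR adjusted p 0.043, and 0.012 with the block). Without the block, this call was lost in the same 8 of 10 fits as that of Rrm2. The log2 fold change was -0.34 within the libraries with header number 57, where no gene of the whole table decreased, and -0.40 within the other 6 (edgeR adjusted p 0.067). H2afz, the gene of H2A.Z, was at 607, 695, 579.8, 497 and 432 CPM in controls and 536, 647, 550.1, 431 and 364 CPM in mutants (log2 fold change -0.15, SE 0.16, edgeR adjusted p 0.656, and 0.110 with the block). Both H3.3 genes had a positive value. H3f3a stood at 939 ± 78.4 CPM in controls and 1009 ± 136 CPM in mutants (log2 fold change 0.10, SE 0.10, edgeR adjusted p 0.625), and H3f3b at 913 ± 70.4 and 953 ± 102 CPM (log2 fold change 0.061, SE 0.089, edgeR adjusted p 0.755). The median of the replication-dependent H3 genes was -0.21.

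**Figure D5:**
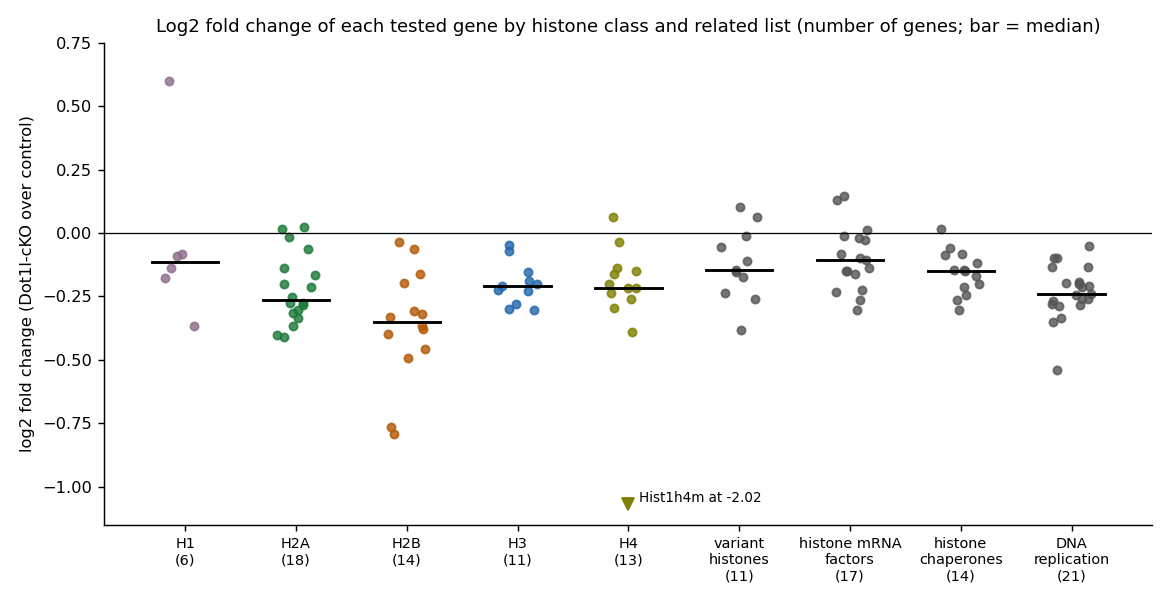
Fitted log2 fold change (y axis, Dot1l-cKO over control) of each tested gene of the 5 histone classes and of 4 related lists, with the number of genes in brackets and a bar at the median. The medians run from -0.35 for H2B to -0.10 for the histone mRNA factors, and Hist1h4m at -2.02 is drawn as an arrowhead.

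Markers of other cells moved with the groups as follows. All 6 microglial markers increased without the block and 5 with it, with a summed level of 33.9 to 54.7 CPM in controls and 70.5 to 98.6 CPM in mutants. Of 8 ventral telencephalon markers, 7 were tested and 1, Lhx6, decreased in both fits. All 7 had a log2 fold change below 0, with a median of -1.75 and a range from -3.00 to -1.56. Without the block, 6 of them had an unadjusted p below 0.05 by edgeR. The summed level was 54.7 to 279.8 CPM in controls and 5.36 to 81.7 CPM in mutants, lower in 5 of 5 same-numbered pairs. None of the 8 erythroid, 5 endothelial, 6 meningeal or 4 choroid plexus markers passed either fit, and none was called by DESeq2 or had an unadjusted p below 0.05 by edgeR without the block. The erythroid sum ran from 594 to 2531 CPM in controls and from 904 to 2226 CPM in mutants. Single libraries stood far apart in 2 of these lists. The choroid plexus sum was 512 and 596 CPM in control replicates 1 and 3, at most 3.14 CPM in the other controls and 3.03 to 141 CPM in mutants. The meningeal sum ran from 24.7 to 852 CPM in controls and from 30.4 to 782 CPM in mutants. Their part in the histone values was not tested.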

How the data were processed

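RNA from 10 samples of E14.5 mouse dorsal telencephalon, 5 control and 5 Dot1l-cKO, was sequenced by the authors as stranded, ribosomal RNA-depleted total RNA libraries. Per the labels and the study's methods, the authors trimmed reads with Trim Galore 0.2.8, aligned them with TopHat2 2.0.9 to mm10 guided by Ensembl gene models and counted them per gene with HTSeq 0.6.0, so the deposited raw values are whole counts per gene. The deposited normalised values are a signal, those counts divided by a DESeq2 1.6.1 size factor per sample. The raw counts were used for all results, and the normalised values for a limma alternative. Identifiers were given symbols, positions and exon lengths from GENCODE M21 on GRCm38, which is a later annotation than the one counted, and 42462 of 43629 matched.

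Genes were tested across the whole table with edgeR 4.0.16 (filterByExpr, TMM, quasi-likelihood fit and test, two-sided) in R 4.3.3, with Benjamini-Hochberg adjustment over all 17039 genes tested and a threshold of 0.05. Group labels alone entered the first fit, as the study's methods name no further term. The SE was taken as the log2 fold change divided by the square root of F. CPM is the raw count scaled to the TMM-adjusted library size, as edgeR gives it. A second fit added the replicate number as a block. The numbers come from the labels. Samples with the same number correlated in their deviations from the group means (0.23, 0.35, 0.15, 0.60 and 0.13 for numbers 1 to 5, mean 0.29). On this ground they were taken to pair the samples. The mean between different numbers was -0.072. Deviations within a group sum to 0, so this value largely follows from the same-number mean and is no separate support for pairing. Class sums and medians carry no test. The labels describe biological replicates, and the study's methods describe littermates.

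Shared sequence was measured as the share of 50-base windows of a gene's transcripts found in transcripts of other genes. No genome sequence was used, so unannotated copies are missed, and annotations that overlap the same locus, on either strand, are counted as well. The stem-loop was likewise searched in annotated transcripts and not beyond their ends. Promoter windows are RefSeq's, and for Hist1h2be, listed with 2 starts, the first was used. AAACACA was added after the other motifs. Alternatives were DESeq2 1.42.0, its size factors in edgeR, other low-count filters, limma 3.58.1 on log2(normalised count + 1), removal of mitochondrial genes, the header number as a block, each set of libraries alone and each sample left out. On counts simulated with edgeR's dispersions, DESeq2 at its defaults made a much larger share of false calls than edgeR or limma. Its calls are therefore given as an alternative only and are no separate support for those of edgeR. Named genes are Dot1l, histone genes called without the block, the 3 with the highest mean CPM in each class, called genes of the 4 lists, and Slbp, H2afz, H3f3a and H3f3b. The histone genes and lists were chosen with earlier results of these data known. The Cre driver is not reported here.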

Additional observations from a re-analysis of the deposited data

Results flagged for a closer look

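In 6 of the 82 groups of 5 examined, 1 sample stood far from the other 4 on the log2 scale, and chance alone gives such a gap in about 1 group in 20. Control replicate 5 was the low sample in 4 of the 6. For the summed H1 genes it was at 2418 CPM against 3042 in the next control, a gap of 0.722 of the group's range. For Hist1h1b it was at 436 CPM against 618 (0.766 of the range), for Hist1h2ak at 217 against 272 (0.893), and for Hist1h2ab at 79.8 against 215 (0.876). Dot1l-cKO replicate 2 was the high sample for the summed H2B genes, at 2331 CPM against 1824 in the next mutant (0.744 of the range). The same library was the low sample for Dot1l, at 20.1 CPM against 39.6 in the next mutant (0.717 of the range). Without control replicate 5, 6 histone genes were called as decreased in the fit without the block, and without Dot1l-cKO replicate 2, 5 were. Over the fits that left out a sample, 126 to 343 genes of the whole table decreased, the most without control replicate 5.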

How the results depend on the processing

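The class medians and sums kept a negative sign and moved by less than 1 SD (of the class's log2 level between samples, pooled within groups) under every alternative run, including the one restricted to genes with at most 50% of their windows found in another gene, which was chosen after seeing the data. Some still moved by over 1.5 times. The H1 median (-0.11) was -0.076 without control replicate 4, -0.18 without control replicate 5, -0.20 without Dot1l-cKO replicate 4 and -0.067 without Dot1l-cKO replicate 5. The H2A median (-0.26) was -0.16 without control replicate 2 and -0.17 without Dot1l-cKO replicate 5 or within header number 57. The H3 median (-0.21) was -0.11 without control replicate 2, and the H4 median (-0.22) was -0.14 without control replicate 3. The H3 sum (-0.18 on the log2 scale) was -0.072 without control replicate 2, -0.11, -0.29 and -0.12 without Dot1l-cKO replicates 1, 2 and 5. The number of histone genes called did not stay. It was 1 without the block, 8 with DESeq2, 3 with DESeq2 size factors in edgeR, 16 with the replicate block, 9 with the header number as a block, 3 with limma, 2 within the other 6 libraries and 0 within the libraries with header number 57, and 0 to 6 when each sample was left out (6 without control replicate 5, 5 without Dot1l-cKO replicate 2, 1 without Dot1l-cKO replicate 1 and 0 without any other). Of all genes, 1.44% decreased without the block, 3.43% with DESeq2, 2.91% with the replicate block and 3.5% with the header block. The share was 0.896% within the other 6 libraries and 0% within header number 57. For limma and for DESeq2 size factors in edgeR no share of all genes is given here, so those counts cannot be read against one. The cause of the shifts in the number called was not tested. No histone gene was called as increased in any fit.

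In the whole table, the increased genes numbered 966, against 590 within the other 6 libraries, 1 within those with header number 57 and 624 to 1076 with a sample left out. The decreased genes numbered 246, against 663 with DESeq2, 495 with the replicate block, 597 with the header block, 155 and 0 within the library sets, and 126 to 343 with a sample left out. DNA replication genes called as decreased numbered 1, against 6 with DESeq2, 7 with the replicate block, 9 with the header block, 0 within either library set, and 0 to 7 with a sample left out (7 without control replicate 5, 2 without Dot1l-cKO replicate 2, 1 without Dot1l-cKO replicate 3 and 0 without any other). Histone mRNA factors numbered 0, against 3 with DESeq2, the replicate block or the header block, and 0 to 1 with a sample left out. With DESeq2 size factors or limma, 1 was called, again with no share of all genes to read it against. Variant histones numbered 1, against 0 without a low-count filter or within either library set, and 0 to 2 with a sample left out. Histone chaperones numbered 0, and 0 to 1 with a sample left out. Among the fits that left out a sample, the highest count of decreased genes in each of the 4 lists and in the whole table was that without control replicate 5.

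The sign turned for Dot1l (-0.37 within header number 57, -0.0058 with limma, -0.046 without Dot1l-cKO replicate 5, and up to 0.25 with another sample left out), for Hist2h2ac (0.046 within header number 57, 0.0050 without control replicate 4, 0.0023 without Dot1l-cKO replicate 5, and down to -0.053 with another left out) and for Hist1h3e (0.082 within the other 6 libraries, 0.12 without control replicate 2, 0.00047 without control replicate 3, 0.060 without Dot1l-cKO replicate 1, and down to -0.14 with another left out). None of these values was a call. How reads that align to several histone genes were counted is not given in the sources used here beyond the counting tool, so levels of genes with many shared windows are uncertain.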
